A study of Mus musculus with 6 samples.

Results

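The RNA levels of 9 regulators of apoptosis and necroptosis were followed in liver RNA from mice lacking NEK7 in hepatocytes. They were the 9 rows of the deposited gene table with the symbols Fas, Casp8, Ripk3, Mlkl, Bid, Bcl2l11, Bcl2l1, Bcl2 and Mcl1, out of 17975 rows, and each symbol had exactly 1 row. All 9 passed the filter on low counts and were among the 13805 genes tested. The study compared 3 mice with a homozygous hepatocyte knockout of NEK7 (Hom) with 3 wild-type mice (WT, named Ctrl in the titles), with 1 whole liver sample per mouse. In Hom mice both Nek7 alleles are floxed (NEK7 fl/fl) and Cre is driven by the albumin promoter (Alb-Cre), so that Nek7 is deleted in hepatocytes while the other liver cells keep it. No treatment is given for either group, and the labels give no age; the study states an age range in weeks for its mice in general and describes Hom mice of several months, without saying which applies to these 6 livers.

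Apoptosis can start at the cell surface or at the mitochondria. FAS is a death receptor that, once bound by its ligand, recruits the adaptor FADD and the initiator protease caspase-8. In hepatocytes caspase-8 also cleaves BID, a protein that carries the death signal to mitochondria, where the BCL2 family decides whether the outer membrane is opened. When caspase-8 is inactive, the kinase RIPK1 can instead activate the kinase RIPK3, and RIPK3 phosphorylates MLKL, which then breaks the plasma membrane, and this form of death is called necroptosis. The pro-survival proteins BCL2, BCL-xL (from Bcl2l1) and MCL1 bind and restrain the death-promoting members, among them BIM (from Bcl2l11), and the loss of BCL-xL or MCL1 in hepatocytes is known to cause liver damage.

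Of the 9 genes, 5 were higher in Hom livers and 0 were lower when an edgeR quasi-likelihood p, adjusted by Benjamini-Hochberg over all 13805 genes, had to be under 0.05. They were Mlkl at 4.35-fold, Bcl2 at 2.95-fold, Bcl2l11 at 2.06-fold, Fas at 1.51-fold and Mcl1 at 1.32-fold. Casp8, Ripk3, Bid and Bcl2l1 did not pass the threshold. Over all tested genes, 21.5% were higher and 20.1% were lower by the same rule. Of the 9 genes, 3 (Mlkl, Bcl2 and Bcl2l11) were called higher with a log2 fold change of at least 1, as were 13.2% of tested genes. Every Hom liver lay above every WT liver for 6 of the 9 genes, the 5 called and Bid, against 28.7% of all tested genes. None of the 9 had every Hom liver below every WT liver, against 27% of all tested genes. For the 9 genes the median difference on the log2 scale was 0.41, against −0.0018 over all tested genes. The 9 genes were chosen with earlier results of these data known, so these contrasts are a description.

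The counts are estimated reads per gene, which the authors made and which totalled 19349418 to 19730236 per liver. Levels are given in CPM, read counts scaled to library size after TMM factors had scaled the libraries for their composition. Nek7 itself had 1127, 1077 and 1036 counts in the WT livers and 310, 439 and 387 in the Hom livers (log2 fold change −1.99, with a standard error, SE, of 0.10). TMM factors were 0.81 to 0.92 in WT and 1.09 to 1.23 in Hom livers. With library size alone in their place, the typical gene (the median) moved to 0.45 on the log2 scale, so all differences here are relative to a typical gene. At that scaling 91.1% of all called genes were higher, against 51.7% with TMM factors. Marker genes of the liver's cell types moved between the groups. Of 12 hepatocyte markers 8 were lower, with a summed level of 159840 to 190690 CPM in WT and 67635 to 86758 CPM in Hom livers. Of 10 cholangiocyte markers 9 were higher (81.0 to 110 CPM in sum against 639 to 901), of 10 stellate cell markers 6 were higher and 1 lower (154 to 176 against 481 to 561.5), of 10 macrophage markers 3 were higher and 2 lower (177 to 449 against 183 to 275), and of 9 endothelial markers 1 was higher and 5 lower (181 to 245 against 126 to 131). Most of the cholangiocyte sum in Hom livers was Spp1 alone, at 29.3 to 57.4 CPM in WT and 520 to 733 CPM in Hom livers. Of 7 tested lymphocyte markers 3 were higher (11.1 to 24.2 CPM in sum over 10 genes against 25.9 to 46.4), none of 5 tested neutrophil markers passed (6.03 to 94.7 over 6 genes against 14.5 to 43.8), and all 8 proliferation genes were higher (4.81 to 14.3 against 24.9 to 52.4). A count of 0 in at least 1 liver was found for 2 lymphocyte markers and 1 neutrophil marker, and for no marker of the other cell types. The part of these shifts in the values of the 9 genes was not tested, and in whole liver RNA fewer cells of a type cannot be told apart from less RNA per cell. A pair of libraries stood apart from their group. WT replicate 1 had summed macrophage markers of 449 CPM and neutrophil markers of 94.7 CPM, against 177 to 202 CPM and 6.03 to 11.6 CPM in the other WT livers. Hom replicate 1 had 7.14 CPM in sum for 4 Y-linked genes, against 127 to 137 CPM in the other 5 livers. In that liver Ddx3y and Kdm5d had 0 counts and Eif2s3y 4, and nearly all of the sum was Uty, with 149 counts. The labels give no sex, and the study reports using both sexes in its work with knockout mice. Sex was not part of the model. Values without these libraries are given for some of the results they change, and not for all.

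The start sites of the 3 genes that at least doubled are shown for reference, since these genes rose the most. Each sequence is a RefSeq window of GRCm38.p6, from 250 bases before to 50 bases after an annotated transcription start, written 5′ to 3′ on the gene's strand. Capitals mark GGGCGG, the GC box bound by SP1-type factors, on either strand. The windows are chr8:111338156-111338455 (minus strand) for Mlkl, chr1:106714241-106714540 (minus strand) for Bcl2, and chr2:128125788-128126087 (plus strand), the first of 2 listed, for Bcl2l11. The final bases of the Bcl2 and Bcl2l11 windows lie near the beginning of a GENCODE M21 transcript of the gene, but those of the Mlkl window do not, so the start of Mlkl is less certain than the other two.
Mlkl: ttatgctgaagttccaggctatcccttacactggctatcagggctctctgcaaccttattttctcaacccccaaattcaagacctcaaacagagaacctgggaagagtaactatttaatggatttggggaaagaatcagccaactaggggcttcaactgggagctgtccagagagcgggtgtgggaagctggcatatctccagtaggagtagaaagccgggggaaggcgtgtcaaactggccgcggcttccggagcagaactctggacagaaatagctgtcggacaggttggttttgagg
Bcl2: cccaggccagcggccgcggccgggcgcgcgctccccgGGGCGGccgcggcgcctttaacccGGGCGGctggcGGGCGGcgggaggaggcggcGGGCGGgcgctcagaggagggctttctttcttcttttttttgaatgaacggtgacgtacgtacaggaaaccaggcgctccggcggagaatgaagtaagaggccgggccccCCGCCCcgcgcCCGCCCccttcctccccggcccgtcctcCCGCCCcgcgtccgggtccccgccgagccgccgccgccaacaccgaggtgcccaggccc
Bcl2l11: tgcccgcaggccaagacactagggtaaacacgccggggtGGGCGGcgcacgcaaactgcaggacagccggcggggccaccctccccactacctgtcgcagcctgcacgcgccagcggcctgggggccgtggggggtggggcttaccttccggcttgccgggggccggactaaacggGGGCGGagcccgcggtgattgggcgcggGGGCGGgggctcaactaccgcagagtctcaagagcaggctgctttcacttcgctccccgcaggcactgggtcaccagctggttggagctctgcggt

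The Bcl2 window had 76% G and C bases, 44 CG dinucleotides and 7 GC boxes. The Bcl2l11 window had 71% G and C, 27 CG dinucleotides and 3 GC boxes, while the Mlkl window had 51% G and C, 7 CG dinucleotides and 0 GC boxes. Over all 32851 windows in the RefSeq table the medians were 52.7% G and C and 7 CG dinucleotides, and 35.7% held a GC box. Of the 12 windows of the 9 genes, 7 held one, belonging to Bcl2, Bcl2l11, Bid, Fas, Mcl1 and Ripk3. On either strand, 0 of the 12 held GAAA and GAAA separated by NN, the core of the interferon-stimulated response element (3.44% of all windows), 0 held GGGA and TTTCC separated by N, an NF-kappaB site (0.411%), 0 held TATAAA, the TATA box (13.6%), and 1, that of Fas, held TTCNNNGAA, a STAT site (8.3%). A match or its absence in these windows is a description of the sequence alone.

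Fas, the receptor that starts the surface route, was measured at 12.3, 10.7 and 16.2 CPM in WT replicates 1, 2 and 3 and at 21.9, 19.6 and 17.8 CPM in Hom replicates 1, 2 and 3. The groups did not overlap, but the gap between WT replicate 3 and Hom replicate 3 was small. The log2 fold change was 0.60 (SE 0.17, 95% interval 0.20 to 0.99, edgeR adjusted p = 0.0284). This call depended on single livers: the adjusted p was between 0.0515 and 0.0822 without WT replicate 1 or 2 or any 1 of the Hom replicates, and 0.0540 with the replicate number as a block, while the log2 fold change stayed between 0.47 and 0.77 with 1 liver left out. Without replicate 1 of both groups the log2 fold change was 0.48 (edgeR adjusted p = 0.111). Casp8, whose protease both starts apoptosis and blocks necroptosis, was at 23.8, 27.5 and 29.3 CPM in WT and at 22.4, 30.1 and 30.0 CPM in Hom livers. The ranges overlapped, and the log2 fold change was 0.036 (SE 0.14, 95% interval −0.30 to 0.37, adjusted p = 0.854). Its call rested on the scaling, since with library size alone Casp8 was higher (log2 fold change 0.51, edgeR adjusted p = 0.0375), by 0.053 more than the median gene. Its sign turned without WT replicate 1 (−0.048), Hom replicate 2 (−0.032) or Hom replicate 3 (−0.030).

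Mlkl, the executioner of necroptosis, differed the most among the 9 genes. It was at 5.36, 4.30 and 3.69 CPM in the WT livers and at 16.7, 23.1 and 18.4 CPM in the Hom livers. The lowest Hom liver lay well above the highest WT liver. On the log2 scale the difference was 2.12 (SE 0.19, 95% interval 1.67 to 2.57, edgeR adjusted p = 5.50e-04), and 4.87% of all tested genes had a log2 fold change as large or larger. Over the 6 fits that left out 1 liver the value was 1.98 to 2.27 and remained past the threshold.

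Ripk3, the kinase that activates MLKL, is known to be scarce in healthy hepatocytes and had the fewest counts of the 9 genes in every liver but WT replicate 1. Its counts were 45, 11 and 19 in WT and 27, 64 and 46 in Hom livers, which is 2.51, 0.71 and 1.17 CPM in WT and 1.26, 2.64 and 1.98 CPM in Hom livers. The groups overlapped, with WT replicate 1 second only to Hom replicate 2. The fitted log2 fold change was 0.41 (SE 0.50, 95% interval −0.77 to 1.59, edgeR adjusted p = 0.534), an interval that holds both a decrease and a more than doubled level. The liver with the highest WT value was the one with high macrophage and neutrophil markers. Without that liver and Hom replicate 1, an alternative chosen after the data were seen, the log2 fold change was 1.30 (SE 0.37, edgeR adjusted p = 0.0385 with 2 livers per group). With 1 liver left out at a time the log2 fold change was 0.084 to 1.06, lowest without WT replicate 2, and no such fit passed the threshold.

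**Figure D1:**
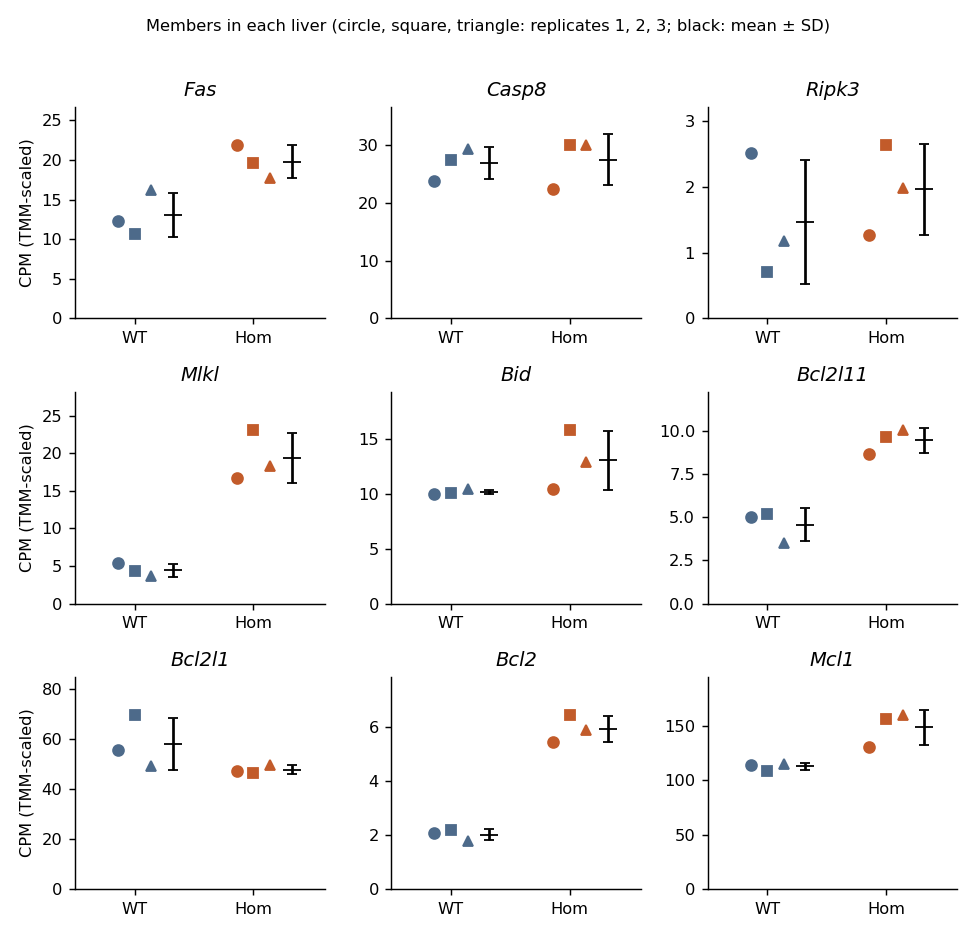
Level of each of the 9 genes in each liver, in CPM after TMM scaling on a linear axis from 0, with WT livers in blue and Hom livers in orange and the mean ± SD (n = 3 mice) in black. The Hom points of Mlkl, Bcl2 and Bcl2l11 lie well above all WT points, whereas those of Casp8, Ripk3 and Bcl2l1 overlap with WT.

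Bid, the link between caspase-8 and mitochondria, was at 10.0, 10.1 and 10.4 CPM in WT and at 10.4, 15.8 and 12.9 CPM in Hom livers. All WT livers were close together, and Hom replicate 1 lay just above them. The estimate was a log2 fold change of 0.36 (SE 0.16, 95% interval −0.026 to 0.75, edgeR adjusted p = 0.117). Bid passed the threshold without Hom replicate 1, the library with few Y-linked reads (log2 fold change 0.50, adjusted p = 0.0317), and with library size alone (0.83, adjusted p = 0.0142). It also passed without replicate 1 of both groups (log2 fold change 0.50, edgeR adjusted p = 0.0394). In GENCODE M21 its exons share 628 bases with those of Bcl2l13 on the opposite strand, and since the strandedness of the libraries is not given, reads from these bases cannot be assigned to either gene with certainty.

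Bcl2l11 encodes BIM, a BH3-only protein that can bind all pro-survival relatives and activate the pore-forming BAX and BAK. It was at 5.03, 5.20 and 3.50 CPM in WT and at 8.63, 9.65 and 10.0 CPM in Hom livers. No Hom liver came near the WT range. The log2 fold change was 1.04 (SE 0.18, 95% interval 0.61 to 1.48, edgeR adjusted p = 0.00526), and it was 0.88 to 1.14 and past the threshold with each liver left out.

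Among the pro-survival genes, Bcl2 differed most. It was at 2.07, 2.18 and 1.78 CPM in WT and at 5.46, 6.43 and 5.91 CPM in Hom livers. The spread within each group was small beside the gap between them. On the log2 scale the difference was 1.56 (SE 0.18, 95% interval 1.13 to 1.98, edgeR adjusted p = 0.00120), with 1.47 to 1.62 when 1 liver was left out. Bcl2 shares 558 exon bases with the antisense gene D630008O14Rik, which was not among the tested genes.

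Mcl1, whose protein turns over fast and is needed by hepatocytes, was the most counted of the 9 genes. It was at 115, 109 and 115 CPM in WT and at 131, 157 and 160 CPM in Hom livers. Hom replicate 1 was again the lowest of its group but above all WT livers. The fitted log2 fold change was 0.40 (SE 0.10, 95% interval 0.16 to 0.64, edgeR adjusted p = 0.0189). The call was lost without WT replicate 2 or 3 or without Hom replicate 2 or 3, with adjusted p from 0.0534 to 0.0712 and log2 fold changes of 0.35 to 0.41.

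Bcl2l1, the source of BCL-xL, was the only member with a negative log2 fold change. It was at 55.6, 69.5 and 49.2 CPM in WT and at 47.1, 46.5 and 49.7 CPM in Hom livers. The Hom livers lay together at the lower end of the WT range, and Hom replicate 3 exceeded WT replicate 3. The estimate was a log2 fold change of −0.28 (SE 0.13, 95% interval −0.59 to 0.024, edgeR adjusted p = 0.121). It was called lower without WT replicate 3 (−0.39, adjusted p = 0.0456) and turned to 0.18 (adjusted p = 0.283) with library size alone, which is 0.27 below the median gene at that scaling. Gene-level counts do not separate BCL-xL from the short, death-promoting form made from the same gene, nor the isoforms of Bcl2l11 and Mcl1. As a check on single genes, the exact two-sided permutation test over the 6 livers gave p = 0.1, the smallest it can give, for the 5 called genes and Bid, and 0.2, 0.4 and 0.8 for Bcl2l1, Ripk3 and Casp8.

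**Figure D2:**
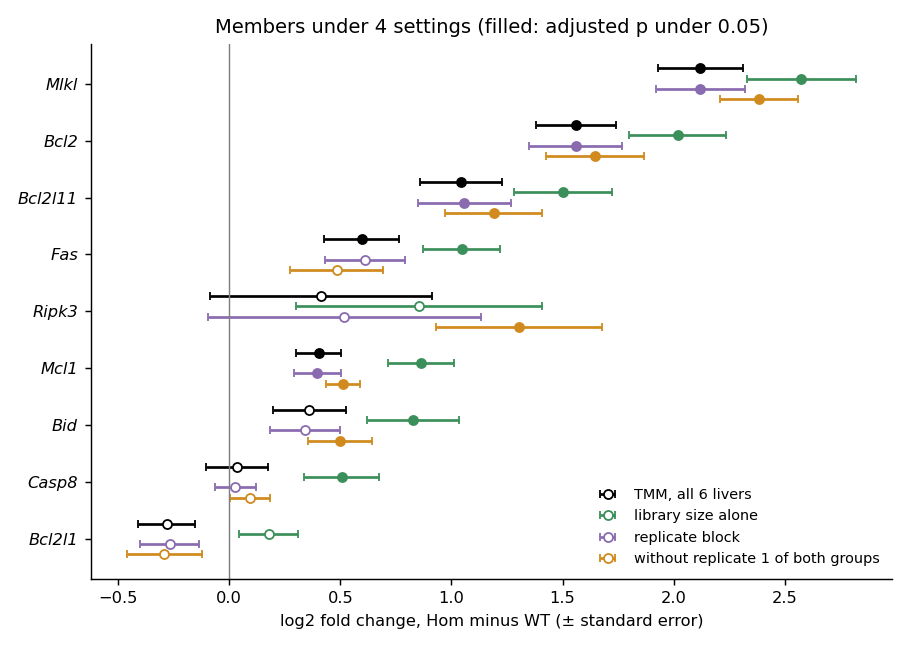
Log2 fold change (Hom minus WT, ± standard error) of each gene with TMM factors, with library size alone, with the replicate number as a block, and without replicate 1 of both groups, with filled points where the adjusted p was under 0.05. Mlkl, Bcl2, Bcl2l11 and Mcl1 are filled in all 4 settings, Fas in 2 of them, and Bcl2l1 lies above 0 with library size alone and below 0 in the others.

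Levels were compared between genes as TPM, the authors' values per transcript length scaled to 1 total per liver. TPM is not adjusted for library composition, so it is used here for the order of genes within a liver. In WT livers the order was Mcl1 (42.6 to 54.5 TPM), Bcl2l1 (26.9 to 37.8), Casp8 (15.9 to 16.9), Fas (10.5 to 14.8), Bid (7.32 to 8.79), Mlkl (2.45 to 4.24), Bcl2l11 (1.02 to 1.96), Ripk3 (0.52 to 2.16) and Bcl2 (0.34 to 0.47). Bcl2l11 and Ripk3 were the only neighbours in this order with overlapping ranges. In Hom livers Mcl1 (77.6 to 107 TPM), Bcl2l1 (39.1 to 45.9) and Bcl2l11 (3.82 to 4.94) each stood clear of their neighbours. Fas (28.1 to 32.0) and Casp8 (19.6 to 29.9) overlapped there, as did Casp8 and Mlkl (16.8 to 26.7), Mlkl and Bid (11.5 to 20.0), and Ripk3 (1.36 to 3.30) and Bcl2 (1.56 to 2.10). Mlkl thus stood below Bid in every WT liver and above it in every Hom liver. Fas was under Casp8 in all 3 WT livers and above it in Hom replicates 1 and 2.

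**Figure D3:**
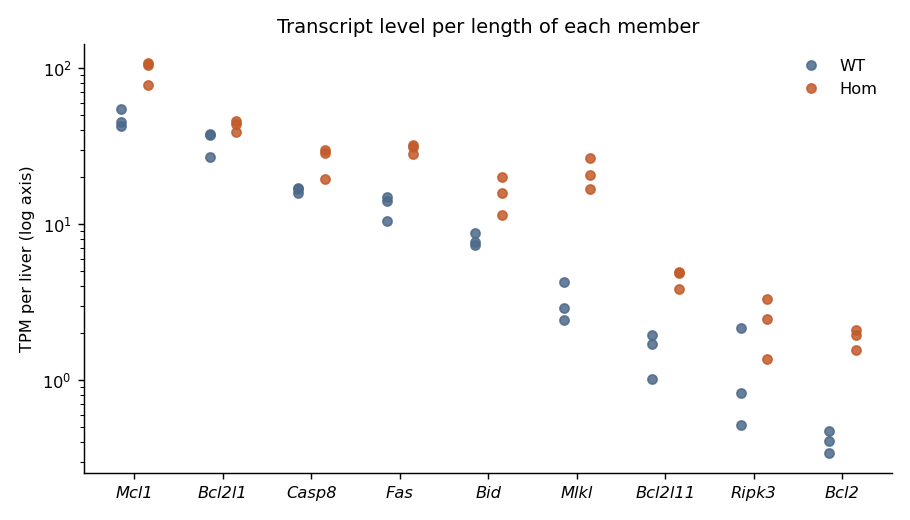
TPM of each gene in each liver on a log axis, with genes ordered by their WT mean and WT livers in blue and Hom livers in orange. Mcl1 and Bcl2l1 are the highest in every liver and Bcl2 has the lowest WT values, at 0.34 to 0.47 TPM.

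Ratios of genes within 1 liver do not depend on how libraries are scaled against each other. For 6 such ratios of TPM, groups were compared with an exact two-sided permutation test over the 6 livers, in which p = 0.1 is the smallest value 3 against 3 livers allow, so no ratio can pass 0.05. The ratio of Mlkl to Ripk3, the necroptosis executioner over its kinase, was 1.96, 5.62 and 2.95 in WT and 12.4, 8.08 and 8.34 in Hom livers. All Hom livers had more, by 1.56 on the log2 scale (p = 0.1, adjusted over the 6 ratios 0.15, exact permutation test). With 1 liver left out the difference was 1.21 to 1.97, lowest without WT replicate 1. The ratio rests on few reads, since Ripk3 had 11 to 45 counts in WT livers. The ratio of Casp8 to Cflar, which encodes the caspase-8 inhibitor cFLIP, was 0.443, 0.595 and 0.582 in WT and 0.950, 1.36 and 1.14 in Hom livers. The groups did not overlap and differed by 1.09 on the log2 scale (p = 0.1, adjusted 0.15, exact permutation test).

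Within the pro-survival genes, Bcl2l1 over Mcl1 was 0.679, 0.888 and 0.593 in WT and 0.503, 0.411 and 0.435 in Hom livers. Every Hom liver was lower, with a log2 difference of −0.66 (p = 0.1, adjusted 0.15, exact permutation test). Put as shares of the summed TPM of Bcl2, Bcl2l1 and Mcl1, Mcl1 took 58.1% ± 4.98 in WT and 68.1% ± 2.21 in Hom livers (SD, n = 3 mice), Bcl2l1 took 41.4% ± 4.96 and 30.6% ± 2.22, and Bcl2 took 0.495% ± 0.0239 and 1.32% ± 0.0493. Bcl2 thus remained a small part of the 3 pro-survival transcripts in both groups. Bcl2l11 over that sum was 0.0213, 0.0211 and 0.0140 in WT and 0.0323, 0.0322 and 0.0319 in Hom livers. The Hom values were nearly identical and all higher, by 0.80 on the log2 scale (p = 0.1, adjusted 0.15, exact permutation test). Bid over the same sum overlapped between groups (0.0907 to 0.105 in WT, 0.0973 to 0.130 in Hom, log2 difference 0.17, p = 0.4, adjusted 0.48, exact permutation test). Bax over the sum also overlapped (0.247 to 0.438 in WT, 0.307 to 0.386 in Hom, log2 difference 0.15, p = 0.6, adjusted 0.6, exact permutation test).

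**Figure D4:**
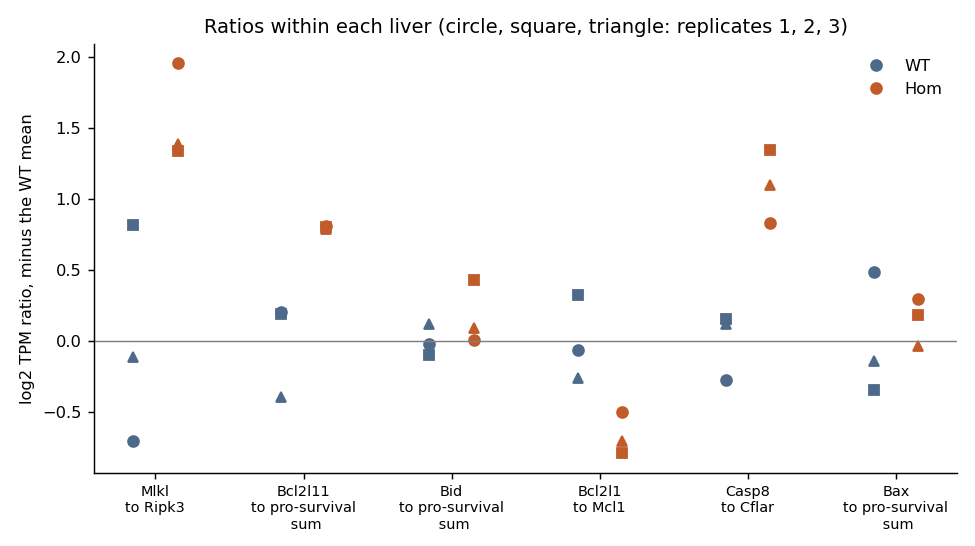
Log2 TPM ratio within each liver minus the mean of the 3 WT livers, for 6 ratios, with WT livers in blue and Hom livers in orange. Mlkl to Ripk3, Bcl2l11 to the pro-survival sum and Casp8 to Cflar are higher in every Hom liver, Bcl2l1 to Mcl1 is lower in every Hom liver, and the ratios of Bid and Bax to the sum overlap.

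The other genes of these pathways were taken from 6 lists, chosen with earlier results of these data known. They held 46 genes, of which 43 were tested. Of these 17 were higher and 3 were lower in Hom mice; their median log2 fold change was 0.27 against −0.0018 for all tested genes. Among all tested genes 21.5% were higher and 20.1% lower. The count of each list below is to be read beside these shares. With library size alone 26 of the 43 were higher and 1 was lower, at a scaling that called 47.6% of all tested genes higher and 4.65% lower.

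In the death receptor complexes, 7 of 13 tested genes were higher and 1 was lower. The largest difference was that of Tnfaip3, which encodes the ubiquitin-editing enzyme A20 that restrains TNF signalling (log2 fold change 2.41, SE 0.22, edgeR adjusted p = 5.86e-04). The ligand genes Tnf (2.22, SE 0.46, from 3 to 5 counts in WT and 18 to 45 in Hom livers) and Tnfsf10, which encodes TRAIL (1.85, SE 0.26), followed. Fasl, the ligand of Fas, had 2, 0 and 1 counts in WT and 6, 10 and 12 in Hom livers and did not pass the filter on low counts. The other genes called higher were the TRAIL receptor Tnfrsf10b, Tnfrsf1a, Birc2 and Birc3, at log2 fold changes of 0.57 to 1.19. Cflar was the one called lower, at 113 ± 12.2 CPM in WT and 53.3 ± 3.25 CPM in Hom livers (SD, n = 3 mice), a log2 fold change of −1.09 (SE 0.10, edgeR adjusted p = 6.03e-04). Fadd, Tradd, Ripk1, Traf2 and Cyld did not pass, with log2 fold changes of 0.0094 to 0.36.

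Of the 5 genes that feed necroptosis, 2 were higher. They were Zbp1, a sensor of unusual nucleic acids that binds RIPK3 (log2 fold change 2.42, SE 0.34, edgeR adjusted p = 0.00221), and Tlr3, a receptor for double-stranded RNA (1.97, SE 0.14, adjusted p = 3.12e-04). Zbp1 was far apart between Hom livers, at 543, 1239 and 502 counts, against 111, 101 and 92 counts in WT livers. Ticam1 (−0.24), Ifnar1 (−0.00080) and Ripk1 (0.13) did not pass. Without Hom replicate 1, and without replicate 1 of both groups, 1 gene of this list was called lower.

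Among the other BH3-only genes, 2 of 5 tested were higher, Bmf (log2 fold change 1.61, SE 0.27, edgeR adjusted p = 0.00450) and Pmaip1, which encodes NOXA (2.30-fold, adjusted p = 0.0419). Pmaip1, with 7 to 22 counts in WT livers, lost its call under 8 of 13 alternatives, among them 5 of the 6 that left out 1 liver and the replicate block (edgeR adjusted p = 0.0785). Bad, Bik and Bbc3 did not pass (−0.061 to 0.50). Hrk, with 0 to 3 counts per liver, was too low to test. Of the pore-forming effectors, Bak1 was higher (0.90, SE 0.068, adjusted p = 3.69e-04), and Bax (0.27, adjusted p = 0.311) and Bok (0.49, adjusted p = 0.0791) did not pass. The number of effectors called higher was 2 without WT replicate 1, without Hom replicate 1 and with upper-quartile factors. It was 3 without replicate 1 of both groups and with library size alone, a scaling that called 47.6% of all tested genes higher.

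Of 4 tested pro-survival relatives, 3 were higher, namely Bcl2a1a, Bcl2a1b and Bcl2a1d, at log2 fold changes of 2.83, 1.91 and 2.07. These are near-identical copies of a gene known from white blood cells, so the split of reads between them is uncertain, and Bcl2a1a had 0 to 4 counts in WT livers. Bcl2a1a lost its call without Hom replicate 2 and with the replicate number as a block (edgeR adjusted p = 0.0559), and Bcl2a1d without Hom replicate 3. Bcl2l2 did not pass (−0.12, adjusted p = 0.615), and Bcl2l10 was not analysed here.

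In the apoptosome and execution list, 2 of 14 genes were higher and 2 lower, and 10 did not pass. Over all tested genes 21.5% were higher and 20.1% lower, so neither count of this list exceeded the general share. Apaf1, the scaffold that cytochrome c turns into the apoptosome, was higher (log2 fold change 1.64, SE 0.22, edgeR adjusted p = 0.00187). The genes of 2 mitochondrial proteins that can act on nuclear DNA were lower, Endog (−0.86, SE 0.20, adjusted p = 0.0138) and Aifm1 (−0.63, SE 0.082, adjusted p = 0.00171). With library size alone neither was called, and Endog was not called without Hom replicate 3. Cycs, Casp9, Casp6, Diablo, Htra2, Xiap, Dffa, Dffb and Parp1, none of which passed, had log2 fold changes between −0.38 and 0.044.

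**Figure D5:**
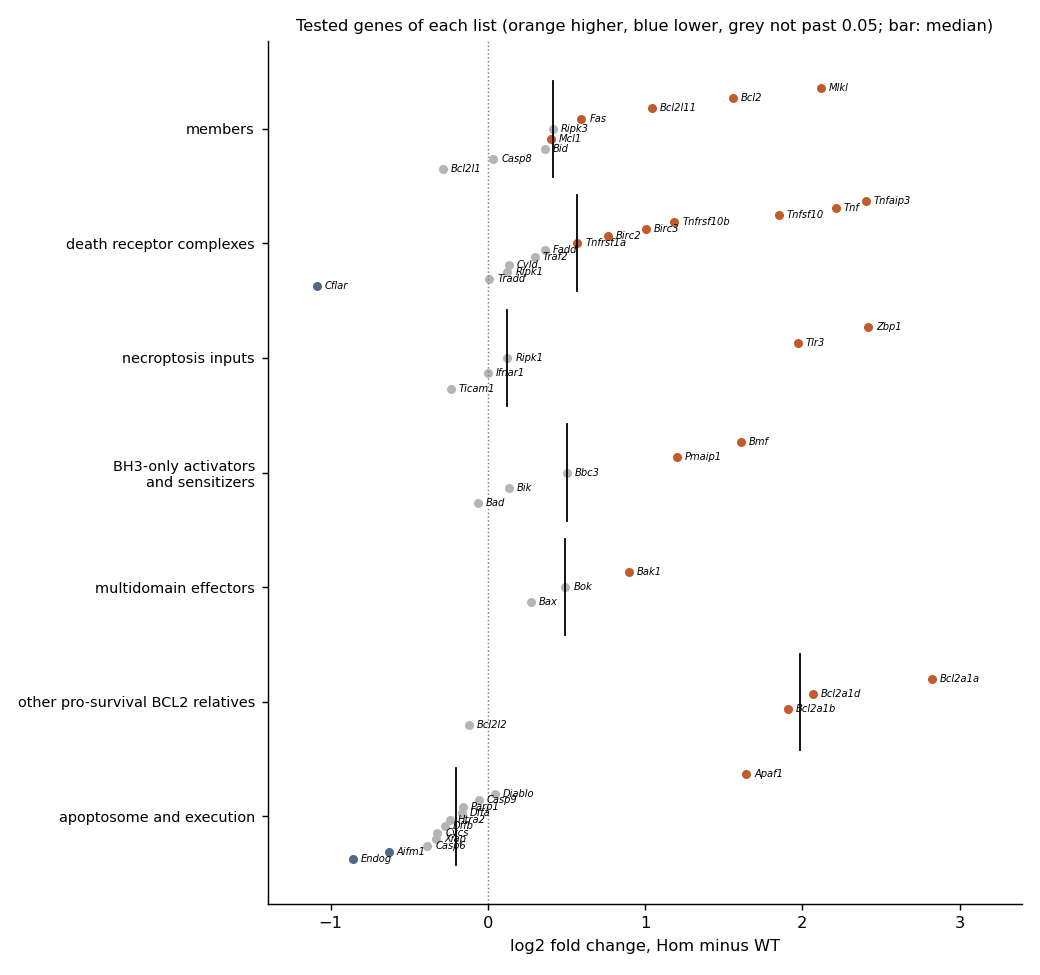
Log2 fold change (Hom minus WT, TMM factors) of tested genes in the 9 members and the 6 pathway lists, with genes called higher in orange, called lower in blue, the rest in grey, and the median of each list as a bar. Cflar, Endog and Aifm1 are the called decreases, and the pro-survival relatives have the highest median at 1.99.

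The pattern of each member over the 6 livers was compared with that of 12503 other genes of at least 1 CPM by Pearson's r on log2 CPM, as a description over 6 livers that form 2 groups. For Mlkl the 2 most alike were Swap70 (r = 0.999) and Tgfbr1 (0.999), and 14.7% of the genes had an r over 0.9. For Bcl2 they were Mdfic (0.999) and F11r (0.999), with 13.9% of genes over 0.9, and for Bcl2l11 Ctnnd2 (0.998) and Angptl2 (0.998), with 10.8%. For Mcl1 they were Stat6 (0.997) and Mid1 (0.997), with 7.53%, and for Fas Erlin1 (0.995) and Dnajc17 (0.993), with 3.52%. The genes without a call had fewer such neighbours. Both r and the calls follow the split between the 2 groups in the same values, so this is not separate evidence. Bid was most like Tap1 (0.996) and Psmb9 (0.985), with 1.15% of genes over 0.9, Ripk3 most like Ccdc82 (0.995) and Atad2 (0.990), with 0.944%, Bcl2l1 most like Mtpap (0.998) and Hipk3 (0.997), with 0.64%, and Casp8 most like Dyrk1b (0.971) and Vnn1 (0.963), with 0.32%.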

How the data were processed

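Liver RNA from 3 WT and 3 Hom mice was extracted with Trizol and sequenced by BGI Genomics on DNBSEQ. The submitters' processing notes name HISAT2 2.0.4, Bowtie2 2.2.5 and RSEM 1.2.12 and the build mm9. The annotation and strandedness are not given in the sources used here. The authors deposited expected counts (estimated reads per gene, not scaled), FPKM values (per length and library size) and TPM values (scaled to 1 total per liver). The deposited group means carry crossed names for all 17975 genes and were not used. Per the file headers each liver has its own column, and no column was left unmapped.

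After rounding of the expected counts, edgeR 4.0.16 under R 4.3.3 compared genotypes over all 6 livers (filterByExpr, TMM, glmQLFit and glmQLFTest). Calls needed a Benjamini-Hochberg adjusted p under 0.05 over 13805 genes, with no minimum fold change, as the study's methods set. Each SE is the absolute log2 fold change over the square root of F. The lowest totals were 19349418 counts, so depth limits mainly Ripk3, Tnf and other genes of few counts. FPKM entered no test and gave only the gene length used in 1 alternative. Ratios used TPM. The procedure was tested on simulated data.

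The members and lists were chosen with earlier results of these data known. The genes named were the 9 members, Nek7, list genes past the threshold (up to 3 per direction and list, by size of change) and those not tested, and the 2 genes most alike each member in pattern. List genes named beyond these were chosen after their values were seen. Alternatives were DESeq2 1.42.0, library size alone, upper-quartile factors, no filter, a minimum of 10 counts per liver, the replicate block, a loess correction for gene length, each liver left out, a log2 fold change of at least 1, and, added after the data were seen, both replicates numbered 1 left out. Some genes of the apoptosome and execution list are counted in its totals but not reported here singly.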

Additional observations from a re-analysis of the deposited data

How the results depend on the processing

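The 5 members called higher (Mlkl, Bcl2, Bcl2l11, Fas and Mcl1) were called under DESeq2, upper-quartile factors, both other filters and the loess correction for gene length, and with library size alone, which added Casp8 and Bid for 7. With a log2 fold change of at least 1 required, 3 members were higher, 13 pathway genes were higher and 1 was lower. With library size alone 26 pathway genes were higher and 1 was lower, and Bcl2l1 turned to 0.18. Leaving out 1 liver at a time, 3 to 5 members were higher (3 without WT replicate 2, Hom replicate 2 or Hom replicate 3), 0 to 1 were lower (Bcl2l1, without WT replicate 3), 14 to 18 pathway genes were higher and 3 to 5 lower (5 without WT replicate 1 or Hom replicate 1). Over these fits the log2 fold change of Casp8 was −0.048 to 0.16 and the log2 difference of the Bax ratio was −0.023 to 0.39, negative without WT replicate 2. Its negative value and those of Casp8 (−0.048, −0.032 and −0.030) were the reversals among leave-one-out values, and the cause was not tested. Without replicate 1 of both groups, 6 members and 17 pathway genes were higher and 5 pathway genes lower. That fit called 3339 higher and 2871 lower over all genes it tested. Over all tested genes, the main fit called 2974 higher and 2780 lower. The counts were 6574 and 642 with library size alone, and 1825 and 575 with a log2 fold change of at least 1. With 1 liver left out they were 1986 to 3057 and 1767 to 2750 (fewest without Hom replicate 3). Of 126 comparisons of a member with an alternative, 105 kept direction and call, 11 lost the call, 6 gained one and 4 turned in sign.

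With the replicate block 4 members were higher, since Fas had an adjusted p of 0.0540 from edgeR's test, and the number lower was 0. Of the pathway genes 15 were higher and 3 lower. Over all tested genes the block fit called 2383 higher and 2214 lower. Same-numbered livers come from different mice and did not deviate together (correlations of −0.11, −0.056 and −0.049), so the number is not a pairing.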
